A study of Mus musculus with 122 samples.

Results

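Macrophages that grew from wild-type bone marrow in the lungs of irradiated mice were compared at 2 times after the transfer, 5 weeks (n = 3 libraries) and 10 weeks (n = 4 libraries). These 7 libraries, of 122 samples in the series, were taken by their labels, the CD45.1 wild-type alveolar macrophages of mixed bone marrow chimeras, and every gene of their count table was used. The series compares alveolar macrophages with and without the transcription factor C/EBPβ, encoded by Cebpb. RNA was read at the 3′ polyA end with barcoded MARS-seq primers from cells sorted by FACS, and the sources used here do not name the sort gate.

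The recipients were CD45.1/2 mice, 8 to 12 weeks old at irradiation with a lethal dose. Each received marrow cells into the tail vein a day later, of which 33% came from wild-type CD45.1/1 donors (B6.SJL-Ptprca-Pepcb/BoyJ, C57BL/6 background). The other 66% came from CD45.2/2 donors (CD11c +/Cre Cebpb flox/flox), a cross of the strains Tg(Itgax-cre,-EGFP)4097Ach/J and Cebpbtm1.1Elgaz/J, so that each lung held both kinds of donor cell. In these donors Cre is driven by the Itgax promoter, which is also active in dendritic cells. All recipients drank Enrofloxacin for 10 days. Cells were sorted from whole lung tissue. The Cebpb-deleted donor cells (5 weeks, n = 4; 10 weeks, n = 3) served here as the second time course. Which libraries came from one recipient is not stated. Each p-value therefore reflects only how far these libraries vary, which may be technical in part.

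Alveolar macrophages live in the air spaces and clear surfactant, a lipid film made by the alveolar epithelium. They depend on GM-CSF, a cytokine of the epithelium, and on PPARγ (Pparg), the nuclear receptor that switches on genes of lipid uptake and storage. After irradiation, circulating monocytes enter the emptied lung and take on the alveolar program, with surface Siglec-F and low CD11b, over the following weeks.

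Total counts ran from 13414465 to 17834909 per library at 5 weeks. At 10 weeks replicate 1 held 12652229 counts and the other 3 libraries 4078361 to 4832182. A floor of 3 counts stood for 0.168 to 0.736 CPM in the wild-type libraries. CPM is a gene's count per library total. Values of single genes are here scaled by TMM, a method that balances libraries of different composition. The floor, the list sums and the values of the Y-linked gene Ddx3y are not scaled by it. Log2 CPM correlated at 0.977 to 0.990 between libraries of one time and at 0.928 to 0.947 between the times. Cebpb was measured at 920, 915 and 941 CPM at 5 weeks and at 1407, 1730, 1554 and 1549 CPM at 10 weeks in the wild-type cells. In the libraries labelled Cebpb KO it was at 18.1 to 36.8 CPM at 5 weeks and at up to 113 CPM at 10 weeks. All 7 were far below the wild-type levels. The Y-linked gene Ddx3y stood at 18.8 CPM in the 10-week wild-type replicate 1 and at 36.1 CPM in the 10-week KO replicate 1, and at no more than 0.522 CPM in the other 12 chimera libraries. In the libraries of the series labelled adult wild-type male it stood at 20.8 to 23.4 CPM. The sex of the donors is not given for each chimera library, so sex may be mixed at 10 weeks.

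Over these 5 weeks genes of the alveolar macrophage program rose in the sorted wild-type samples. Genes of dendritic cells, of the interferon response and of antigen presentation fell. The part of dendritic cells among the sorted cells was not tested. Of 11136 genes tested, 878 rose (7.88%) and 1208 fell (10.8%), which made 2086 genes in all (18.7%; edgeR quasi-likelihood test, adjusted p under 0.05 by Benjamini-Hochberg). The median change of all tested genes was -0.01 on the log2 scale. Of the called genes, 1201 changed by more than 1 on that scale. Leaving out the 5-week replicate 2 lowered the number that rose to 528, and fitting the 7 wild-type libraries alone raised it to 1323.

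Genes of mature alveolar macrophages rose as a group. Of 34 listed genes, all of them tested, 25 rose and 0 fell, with a median change of 1.30. CPM did not overlap between the times in the upward direction for 26 of the 34, against 15.9% of all tested genes. Their summed level went from 11271–15140 CPM at 5 weeks to 28758–40923 CPM at 10 weeks. In a sample of sorted cells, fewer cells of a type and less RNA per cell cannot be told apart.

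The type I keratin gene Krt19 was at 33.8, 11.7 and 5.77 CPM in the 5-week libraries and at 438, 287, 437 and 488 CPM at 10 weeks. All 10-week libraries were far above all 5-week libraries, with a log2 fold change of 4.58 (SE 0.75, adjusted p = 0.00094, edgeR). Krt79, a type II keratin found in alveolar macrophages, went from 11.8, 12.9 and 21.7 CPM to 367, 349, 272 and 326 CPM. The levels within each time were close together and the groups far apart (log2 fold change 4.42, SE 0.35, adjusted p = 1.8e-06, edgeR).

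Siglecf, which encodes the surface lectin used to recognise mature alveolar macrophages, was at 14.3, 11.6 and 10.3 CPM at 5 weeks and at 83.3, 93.0, 126 and 114 CPM at 10 weeks. No 5-week library came near the lowest 10-week library, and the log2 fold change was 3.11 (SE 0.32, adjusted p = 8.3e-06, edgeR). Il18, the precursor of a cytokine cut by caspase-1, rose by 2.77 (SE 0.24), from 42.1, 18.7 and 29.2 CPM to 205, 208, 230 and 178 CPM. Gal, the gene of the neuropeptide galanin, rose by 3.37 (SE 0.40), from 10.0–16.0 CPM to 110–164 CPM.

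Pparg was at 62.2, 69.2 and 110 CPM at 5 weeks and at 204, 209, 309 and 296 CPM at 10 weeks. Even its highest 5-week library was below its lowest 10-week library (log2 fold change 1.66, SE 0.36, adjusted p = 0.0043, edgeR). Chil3, a chitinase-like protein secreted in bulk by these cells, was at 2386, 4853 and 7031 CPM and then at 10694, 22614, 16588 and 17650 CPM. The groups did not overlap, although the 5-week libraries spread widely (log2 fold change 1.83, SE 0.51, adjusted p = 0.022, edgeR), and the call was lost without 5-week replicate 1 or 2 and with no count filter, with an adjusted p of up to 0.087.

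The other 9 genes of the list were not called. Itgax, the gene of CD11c, which is shared by macrophages and dendritic cells, was at 627–769 CPM at 5 weeks and 686–784 CPM at 10 weeks (log2 fold change 0.09, SE 0.16). Car4, a carbonic anhydrase of alveolar macrophages, ranged from 209 to 629 CPM and from 525 to 1385 CPM, overlapping ranges with a log2 fold change of 1.07 (SE 0.59, adjusted p = 0.26, edgeR). Marco, a scavenger receptor, was measured at 0.525–1.91 CPM and 2.08–14.7 CPM, with a log2 fold change of 2.59 (SE 0.87) that missed the threshold (adjusted p = 0.061). In the adult lavage macrophages described below Marco stood at 914 CPM (SD 239, n = 4).

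**Figure D1:**
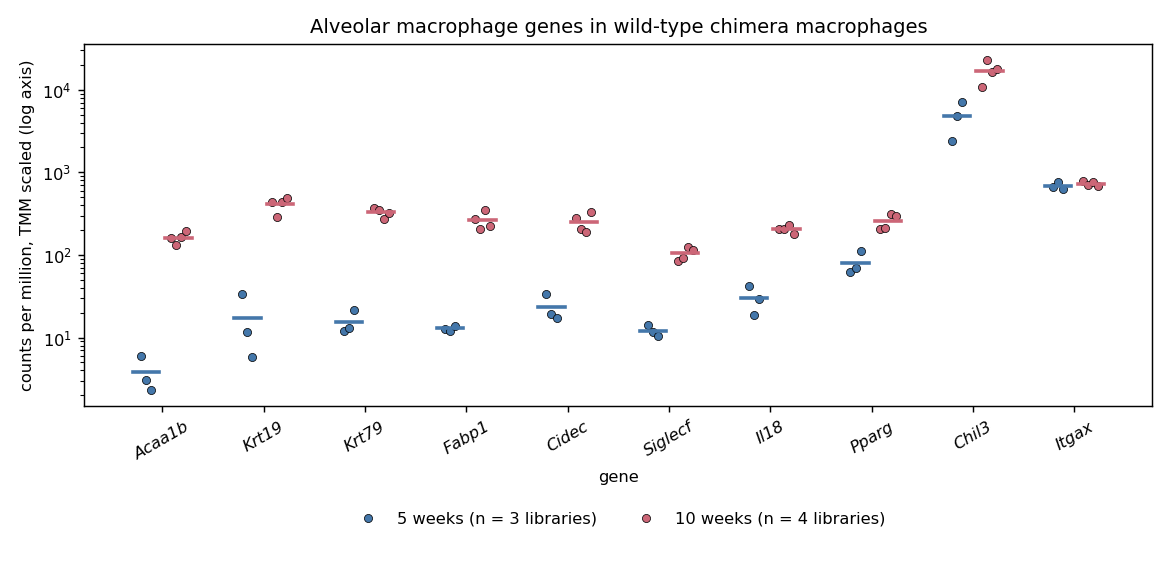
Level of 10 genes in the wild-type chimera libraries (vertical axis, TMM-scaled CPM, log scale; each point 1 library, bars the group mean; 5 weeks n = 3, 10 weeks n = 4). For Krt79 the 10-week libraries lie between 272 and 367 CPM and the 5-week libraries between 11.8 and 21.7 CPM, while for Itgax the groups overlap.

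C/EBPβ peaks of adult wild-type alveolar macrophages, called in 2 ChIP libraries (27105 and 22558 peaks), were set beside these genes. Of the tested genes, 8691 had a promoter in the RefSeq table (250 bases before to 50 after a start), and 20.1% of those had a peak in both libraries on a promoter. The share was 26.1% of 704 genes that rose and 16.3% of 912 genes that fell, and 8 of 24 matched genes of the alveolar macrophage list. The C/EBP motif TTGCNNAA, searched on both strands, was found in 10.2% of the tested genes, 14.2% of those that rose, 9.65% of those that fell and 7 of the 24. Of all 32851 promoters in the table, 10.8% held it. A match describes the letters and shows neither a bound site nor a cause.

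Of the 24, 17 rose over time. In 5 of the 24 the motif and a peak in both libraries lay in 1 promoter, and all 5 rose. Such a promoter was found for 331 of the 8691 tested genes, 60 of the 704 that rose and 20 of the 912 that fell. The 5 list genes are shown because binding data, the motif and the rise over time meet in them. The sequences are those of RefSeq on GRCm38.p6, 5′ to 3′ on the gene's strand, with the motif matches of either strand in capitals. Pparg has 3 promoters in the table, and the one shown, the farthest downstream (chr6:115421816-115422115, plus strand), was the only one of the 3 with a peak or a match. It held 2 matches, and its peaks had −log10 q values of 92.9 and 129.7 as given by the authors' caller.
Pparg: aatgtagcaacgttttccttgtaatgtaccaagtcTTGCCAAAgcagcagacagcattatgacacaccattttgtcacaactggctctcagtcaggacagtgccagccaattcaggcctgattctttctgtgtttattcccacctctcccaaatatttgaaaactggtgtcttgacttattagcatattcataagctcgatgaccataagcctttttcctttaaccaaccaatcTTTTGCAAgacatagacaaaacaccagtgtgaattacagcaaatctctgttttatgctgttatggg
Cidec encodes a lipid droplet protein and lies on the minus strand (chr6:113434715-113435014, −log10 q 24.5 and 28.8).
Cidec: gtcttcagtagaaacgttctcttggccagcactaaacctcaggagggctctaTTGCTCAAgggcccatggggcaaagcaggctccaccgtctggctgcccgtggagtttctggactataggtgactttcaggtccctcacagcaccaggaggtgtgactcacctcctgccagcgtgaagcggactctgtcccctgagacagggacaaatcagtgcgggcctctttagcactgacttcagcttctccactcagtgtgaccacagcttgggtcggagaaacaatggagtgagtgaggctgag
Ear1 (chr14:43819590-43819889, minus strand) and Ear2 (chr14:44102404-44102703, plus strand) encode secreted ribonucleases of the eosinophil-associated family, and their promoters carried the same 8 letters in capitals. Reads of such near-identical genes can be split between copies, so that the counts of both genes and the peaks on their promoters are uncertain. Both promoters shown are nearly alike over their length, so they are not independent cases.
Ear1: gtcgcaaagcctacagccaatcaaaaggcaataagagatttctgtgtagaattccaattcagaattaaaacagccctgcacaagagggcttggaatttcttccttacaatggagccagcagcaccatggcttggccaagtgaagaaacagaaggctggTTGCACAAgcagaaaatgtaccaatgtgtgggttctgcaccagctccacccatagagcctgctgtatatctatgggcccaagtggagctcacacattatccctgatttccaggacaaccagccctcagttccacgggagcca
Ear2: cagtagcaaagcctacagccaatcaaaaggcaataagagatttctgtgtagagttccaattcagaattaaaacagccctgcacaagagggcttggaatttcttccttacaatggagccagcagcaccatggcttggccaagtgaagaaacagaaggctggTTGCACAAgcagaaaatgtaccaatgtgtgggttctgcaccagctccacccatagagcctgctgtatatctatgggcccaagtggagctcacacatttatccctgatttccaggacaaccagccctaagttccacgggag
Plet1 encodes a surface protein attached by a lipid anchor (chr9:50494275-50494574, plus strand, −log10 q 11.1 and 5.73).
Plet1: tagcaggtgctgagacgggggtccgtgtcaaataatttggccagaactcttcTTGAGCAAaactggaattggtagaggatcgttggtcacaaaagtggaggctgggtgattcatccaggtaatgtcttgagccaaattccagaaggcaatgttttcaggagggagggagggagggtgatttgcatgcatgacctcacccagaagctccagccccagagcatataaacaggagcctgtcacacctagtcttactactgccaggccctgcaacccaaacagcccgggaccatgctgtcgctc

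The genes behind these promoters rose by different amounts. Cidec went from 33.2, 19.3 and 17.3 CPM to 278, 208, 190 and 334 CPM, a log2 fold change of 3.44 (SE 0.36, adjusted p = 1.6e-05, edgeR). Ear1 rose by 3.35 (SE 0.57), from 20.0–31.3 to 200–314 CPM, and Ear2 by 1.84 (SE 0.34), from 543–603 to 1657–2469 CPM. Plet1 rose by 1.00 (SE 0.24), from 394–504 to 776–1089 CPM. In none of these 4 genes did the times overlap.

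Genes that handle lipid followed, with more genes rising than falling in uptake, storage and oxidation. Over all tested genes 7.88% rose and 10.8% fell. Of 26 tested genes of lipid uptake, storage and PPAR targets, 10 rose and 2 fell (median 0.41), and of 26 genes of fatty acid oxidation 10 rose and 1 fell (median 0.44). The lists are not separate. Fabp1, Fabp4, Cidec and Lpl of the uptake list, which rose, are also on the alveolar macrophage list, as are Abcg1 and Nceh1 of the efflux list. Without the 5-week replicate 2, 6 genes of lipid uptake rose and 0 fell. The number of risers in fatty acid oxidation was 6 without 5-week replicate 3 and 16 in the fit of the wild-type libraries alone. Of 20 genes of cholesterol efflux and LXR targets, 5 rose and 4 fell, and of 24 genes of cholesterol synthesis 3 rose and 0 fell. Leaving out 1 library moved these 3 to between 0, as without the 5-week replicate 1, and 8 without the 10-week replicate 1. The nuclear-encoded respiratory chain, with 75 tested genes, had 1 that rose and 1 that fell.

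Acaa1b, a peroxisomal thiolase, had the largest rise of all genes that the naming rule took. It was at 6.04, 3.09 and 2.32 CPM at 5 weeks and at 158, 133, 164 and 194 CPM at 10 weeks. The times were separated by a wide gap, with a log2 fold change of 5.39 (SE 0.48, adjusted p = 7.2e-06, edgeR). Cpne5, a calcium-dependent lipid-binding protein, followed at 8.69, 4.56 and 5.85 CPM and then 164, 188, 244 and 251 CPM (log2 fold change 5.05, SE 0.39). Gpd1, which makes the glycerol backbone of glycerolipids, was almost unread at 5 weeks (0.975–2.77 CPM) and reached 24.7–50.5 CPM (log2 fold change 4.43, SE 0.67).

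Fabp1, a cytosolic fatty acid carrier best known from liver and gut, was at 12.8, 12.0 and 13.9 CPM at 5 weeks and at 269, 206, 347 and 225 CPM at 10 weeks. The 5-week libraries were nearly equal and all were far below the 10-week libraries (log2 fold change 4.34, SE 0.40, adjusted p = 7.6e-06, edgeR). Fabp4, a PPARγ target, rose by 2.40 (SE 0.35), from 12.1–17.6 to 41.3–133 CPM. Mgll, the monoglyceride lipase, went from 26.3, 34.2 and 39.8 CPM to 251, 267, 299 and 282 CPM, a log2 fold change of 3.04 (SE 0.26). The lipoprotein lipase gene Lpl rose by 1.29 (SE 0.35, adjusted p = 0.018, edgeR), a call lost without 5-week replicate 2 or 3.

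Among enzymes of fatty acid breakdown, Eci2, an enoyl-CoA isomerase, rose by 1.05 (SE 0.21), from 97.1–107 to 186–235 CPM, with no overlap between the times. Of the cholesterol transporters, Scarb1, a receptor for high-density lipoprotein, rose by 1.64 (SE 0.21) and Abcg1, an exporter of cholesterol, by 1.23 (SE 0.26). Abca1, another cholesterol exporter, was not called (log2 fold change -0.44, SE 0.39, adjusted p = 0.51, edgeR), with overlapping levels of 2.40–5.26 and 1.35–4.73 CPM. Cd36, a fatty acid and scavenger receptor, had a log2 fold change of -0.75 (SE 0.34, adjusted p = 0.14, edgeR), with overlapping levels of 16.0–47.3 and 11.9–26.0 CPM. Fabp5 was among the 2 genes of lipid uptake that fell, by 0.73 (SE 0.23, adjusted p = 0.031). The leukotriene enzymes Alox5 and Ltc4s rose by 1.70 (SE 0.39) and 1.85 (SE 0.20).

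Dendritic cell genes were present in the 5-week libraries and mostly much lower by 10 weeks. Of 12 listed markers 11 were tested, of which 10 fell and 0 rose, beside 10.8% and 7.88% of all tested genes (median -3.20). Their summed level was 771–1115 CPM at 5 weeks and 80.9–270 CPM at 10 weeks, and none of the 12 was at 0 in all libraries. The labels call these cells alveolar macrophages, and the alveolar macrophage genes described above were read in every library. What part dendritic cells among the sorted cells have in the changes below was not tested.

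Xcr1, the chemokine receptor of cross-presenting dendritic cells, was at 13.9, 11.4 and 11.2 CPM at 5 weeks and at 0.369, 0.923, 1.35 and 0.198 CPM at 10 weeks. The later values were close to the floor of 3 counts (0.237 to 0.736 CPM in the 10-week libraries), and the log2 fold change was -4.25 (SE 0.83, adjusted p = 0.0024, edgeR). Itgae, the integrin CD103 of lung dendritic cells, fell from 66.7, 56.5 and 51.9 CPM to 2.88, 7.38, 4.82 and 6.73 CPM. No 10-week library reached any 5-week library, and the log2 fold change was -3.51 (SE 0.47). Ccr7, which guides migrating dendritic cells to lymph nodes, went from 566, 520 and 430 CPM to 30.7, 90.4, 73.7 and 111 CPM, with the same wide gap (log2 fold change -2.73, SE 0.46, adjusted p = 0.00082, edgeR).

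Further markers fell by similar amounts. Flt3, the growth factor receptor of dendritic cell precursors, had a log2 fold change of -3.29 (SE 0.71), Zbtb46, the zinc finger factor of that lineage, -3.20 (SE 0.66), Kmo -4.01 (SE 0.44) and the lectin gene Cd209a -3.29 (SE 0.65). Batf3, a factor needed for cross-presenting dendritic cells, was the single tested marker that did not pass, with 35.1, 55.6 and 47.8 CPM at 5 weeks and 24.8, 48.0, 58.6 and 59.6 CPM at 10 weeks. Its ranges overlapped, and its log2 fold change was 0.03 (SE 0.41).

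Chemokines and lectins outside the marker list fell with them. Ccl17, a chemokine that draws T cells, was at 1356, 1583 and 1147 CPM and then at 82.3, 110, 146 and 105 CPM. Every 10-week library was below every 5-week library by a wide margin (log2 fold change -3.62, SE 0.26, adjusted p = 2.7e-07, edgeR). Ccl22, its close relative, fell by 2.88 (SE 0.40), Il12b, the shared subunit of interleukins 12 and 23, by 2.86 (SE 0.49), and Cd207, the gene of langerin, by 4.15 (SE 0.59). The transcription factor Runx3 was at 55.7, 58.0 and 44.5 CPM and then at 3.92, 5.07, 2.89 and 1.78 CPM. This fall of 3.93 (SE 0.22, adjusted p = 2.8e-08, edgeR) was very even over the libraries.

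**Figure D2:**
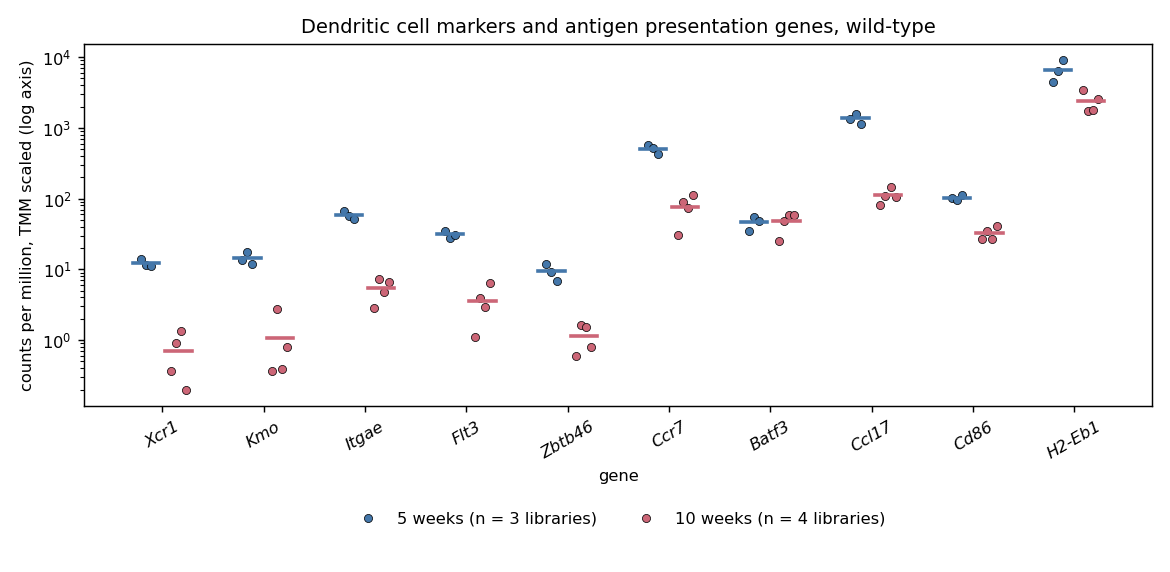
Level of dendritic cell markers and antigen presentation genes in the wild-type chimera libraries (vertical axis, TMM-scaled CPM, log scale; each point 1 library, bars the group mean; 5 weeks n = 3, 10 weeks n = 4). Xcr1 drops from 11.2–13.9 CPM to 0.198–1.35 CPM, and Batf3 overlaps between the times.

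Genes of both branches of antigen presentation fell. Over all tested genes 10.8% fell and 7.88% rose. Of 14 genes of MHC class II and co-stimulation 8 fell and 0 rose (median -0.83), and of 21 genes of MHC class I antigen processing 11 fell and 0 rose (median -0.65). H2-Eb1, a class II chain, was at 4424, 6387 and 8985 CPM at 5 weeks and at 3394, 1753, 1812 and 2567 CPM at 10 weeks. The groups did not overlap but the 5-week libraries differed among themselves (log2 fold change -1.47, SE 0.29, adjusted p = 0.0017, edgeR). Reads of H2 genes can be split between near-identical copies, so their counts are uncertain. The co-stimulatory receptors Cd40 and Cd86 fell by 3.18 (SE 0.31) and 1.69 (SE 0.15). Cd74, the invariant chain, did not pass, with overlapping levels of 4723–9873 and 3839–5196 CPM (log2 fold change -0.55, SE 0.26). Of the class I genes, the peptide transporter Tap1 fell by 1.48 (SE 0.21) and its regulator Nlrc5 by 1.90 (SE 0.20).

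Most of the tested type I interferon response genes fell, beside 10.8% of all tested genes. Of 37 tested genes 28 fell and 0 rose, with a median of -1.42, and their sum went from 2103–3688 to 997–1349 CPM. Over the alternatives in processing and left-out libraries the number that fell ran from 20, without the 5-week replicate 3, to 31. Usp18, a protease that removes ISG15 and damps interferon signals, was at 16.0, 25.3 and 27.4 CPM and then at 3.10, 3.92, 2.89 and 3.56 CPM. The 10-week libraries were all low and nearly equal (log2 fold change -2.78, SE 0.29, adjusted p = 7.9e-06, edgeR). Oasl2, an antiviral oligoadenylate synthetase-like gene, fell by 2.47 (SE 0.30). Ifitm3, an interferon-induced membrane protein listed with the monocyte genes, went from 58.8, 64.1 and 54.4 CPM to 9.23, 8.54, 7.13 and 6.92 CPM. It kept both times far apart (log2 fold change -2.87, SE 0.20, adjusted p = 1.7e-07, edgeR).

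Monocyte genes fell in part. Of 22 tested, 11 fell and 1, the peptidase gene Ace, rose (median -0.90), beside 10.8% and 7.88% of all tested genes. Ccr2, the receptor that brings monocytes out of the marrow, was at 30.0, 35.7 and 31.5 CPM and then at 8.50, 8.54, 6.56 and 9.89 CPM. Its levels within each time were tight and the times apart (log2 fold change -1.95, SE 0.24, adjusted p = 3.2e-05, edgeR). Itgam, the gene of CD11b, was at 111, 137 and 96.8 CPM and then at 18.5, 33.4, 17.9 and 16.2 CPM. All 10-week libraries were lower, replicate 2 the least so (log2 fold change -2.43, SE 0.23). Ly6c2 and Plac8, which mark classical monocytes, fell by 3.50 (SE 0.67) and 3.43 (SE 0.57).

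Genes of interstitial and other tissue macrophages fell in part. Of 28 tested tissue macrophage and complement genes, 12 fell and 3 rose, beside 10.8% and 7.88% of all tested genes (median -1.03). In the fit of the wild-type libraries alone 8 of the 28 fell. Without 5-week replicate 2, 0 of them rose. C1qa, a chain of complement C1q, was at 1351, 1742 and 1828 CPM and then at 957, 477, 172 and 282 CPM. All 10-week libraries were lower, with replicate 1 nearest to the earlier level (log2 fold change -1.79, SE 0.42, adjusted p = 0.0085, edgeR), and the call was lost in that smaller fit, at an adjusted p of 0.056. The complement receptor C3ar1 fell by 2.09 (SE 0.27). Apoe, the main apolipoprotein of macrophages, overlapped widely at 5711, 5833 and 9498 CPM and 9635, 3767, 1350 and 2230 CPM, with a log2 fold change of -0.72 (SE 0.52, adjusted p = 0.40, edgeR). The 10-week replicate 1 was the highest of all 7.

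Mertk, a receptor for the uptake of dead cells, rose by 0.73 (SE 0.21, adjusted p = 0.019, edgeR), a call lost when 5-week replicate 1 or 2 or 10-week replicate 4 was left out. Of 18 genes of lipid-associated macrophages, 6 fell and 3 rose, beside 10.8% and 7.88% of all tested genes. Gpnmb, a glycoprotein of lysosomes, went from 863, 1672 and 996 CPM to 327, 234, 241 and 229 CPM. All 10-week libraries were below all 5-week libraries, replicate 1 the least so (log2 fold change -2.19, SE 0.21). Trem2, a lipid-sensing receptor, fell by 0.93 (SE 0.20).

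Of 30 genes of inflammatory cytokines and chemokines 11 fell, and 1, Il18, rose (median -0.76). Over all tested genes 10.8% fell and 7.88% rose. Ptgs2, the inducible prostaglandin synthase, was at 45.4, 31.5 and 26.8 CPM and then at 9.16, 9.69, 4.82 and 5.74 CPM. The times stood apart (log2 fold change -2.21, SE 0.28, adjusted p = 3.6e-05, edgeR). Il1b was not called, with levels of 4810–5406 and 2091–4829 CPM (log2 fold change -0.51, SE 0.23). Of 20 genes of the GM-CSF receptor and STAT5 targets 10 fell and 0 rose (median -0.37). Those that fell most included feedback inhibitors of cytokine receptors: Socs3 by 2.04 (SE 0.17), from 520–587 to 92.4–167 CPM, and Socs1 by 1.96 (SE 0.25), from 22.6–25.7 to 4.95–7.54 CPM. The receptor chains themselves were not called, with log2 fold changes of 0.20 (SE 0.12) for Csf2ra and 0.09 (SE 0.16) for Csf2rb.

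Cebpb was not called either (log2 fold change 0.75, SE 0.42, adjusted p = 0.26, edgeR), although its 4 10-week libraries were all above its 5-week libraries. It was far lower in the KO libraries of the same fit (18.1–113 CPM), which share an estimate of its spread with the wild-type libraries. The part of this sharing in its SE was not tested. Over the 17 alternatives, among them a fit of the wild-type libraries alone, the log2 fold change of Cebpb was 0.70 to 0.80. Cebpb was called in 1 of the 17. Cebpd rose by 1.08 (SE 0.18), from 28.2–36.8 to 57.8–87.6 CPM, and Cebpa, with overlapping levels of 152–185 and 151–267 CPM, had a log2 fold change of 0.21 (SE 0.21).

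Few genes of growth were called in the fit of the 14 chimera libraries, beside 7.88% of all tested genes that rose and 10.8% that fell. Of 29 DNA replication genes edgeR called 0, with 3 at an unadjusted p under 0.05, and DESeq2 and limma-voom each called 1. In addition, 2 of 28 mitosis genes and 2 of 76 cytosolic ribosomal protein genes fell. Of the ribosomal genes 13 were lower and 0 higher at an unadjusted p under 0.05 in edgeR. In the fit of the wild-type libraries alone 15 of the 76 fell. The ribosomal sum was 108291–113426 CPM at 5 weeks and 93531–102145 CPM at 10 weeks, with no overlap. Mki67, a marker of dividing cells, fell by 0.75 (SE 0.25, adjusted p = 0.043, edgeR), and this call was lost in 9 of the alternatives. Of the markers of other cells, 1 of 8 tested neutrophil genes fell, 0 of 8 lymphocyte genes (3 at an unadjusted p under 0.05) and 0 of 6 erythroid and platelet genes (0) were called by edgeR, DESeq2 or limma-voom, and 3 of 5 stromal and endothelial genes fell. Their sums at 5 weeks were 72.5–166 CPM for neutrophil, 6.86–12.1 CPM for lymphocyte and 66.2–69.5 CPM for stromal and endothelial genes, and at 10 weeks 53.9–101, 4.69–5.37 and 43.6–59.99 CPM. Kit, the growth factor receptor of mast cells and precursors, was the single tested gene of the eosinophil, mast cell and basophil list and fell by 4.10 (SE 0.39). Of 10 tested epithelial genes 1 rose and 1 fell, and their sums overlapped, at 147–203 and 154–191 CPM. The gene that rose was Epcam, an epithelial adhesion gene, by 2.63 (SE 0.40).

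For the dendritic cell, interferon and both MHC lists, 0 genes were higher at 10 weeks also at an unadjusted p under 0.05 in edgeR and by DESeq2 or limma-voom. In the alveolar macrophage list 1 gene was lower at an unadjusted p under 0.05, and 0 were by the other tools.

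**Figure D3:**
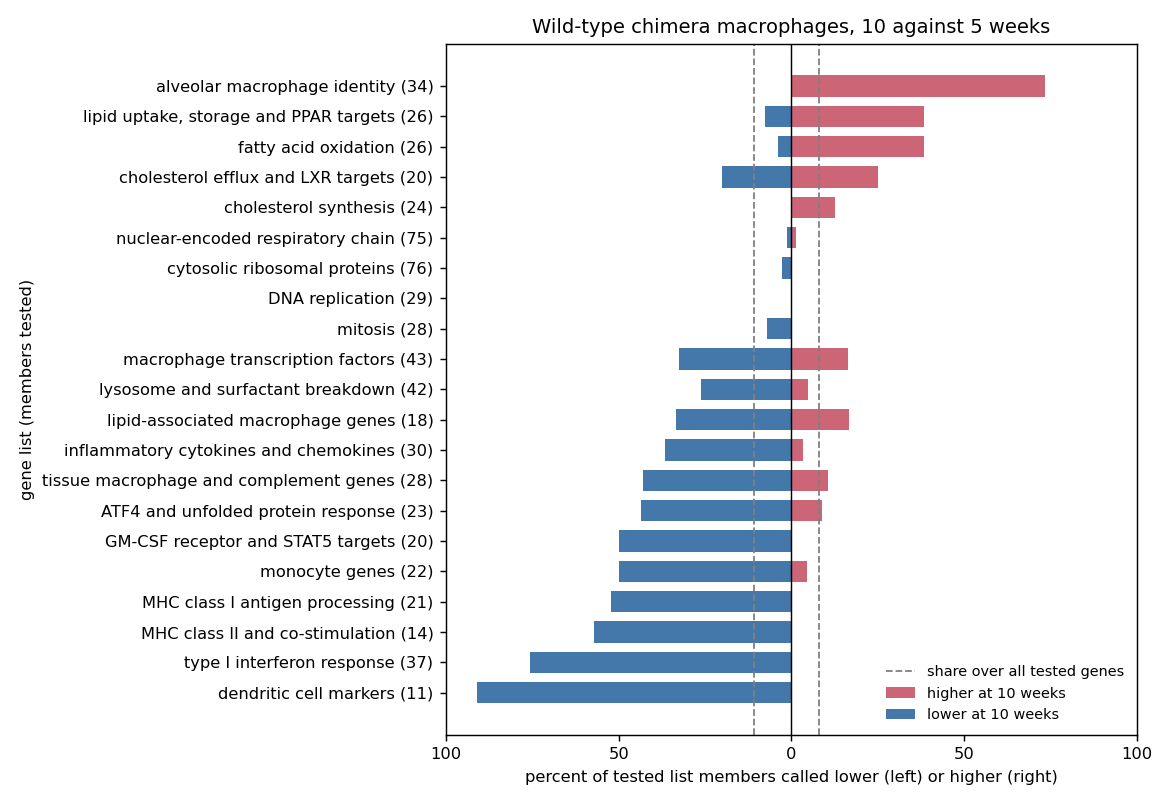
Share of the tested genes of each list that was called higher (right) or lower (left) at 10 weeks than at 5 weeks in the wild-type chimera libraries (horizontal axis, percent; number tested in brackets; dashed lines, the shares of all tested genes, 7.88% higher and 10.8% lower). The alveolar macrophage list stands out to the right with 25 of 34 genes and the dendritic cell markers to the left with 10 of 11.

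The wild-type change was next set against that of the Cebpb-deleted donor cells over the same 5 weeks. Among the alveolar macrophage genes the change was the more positive in wild-type cells for 12 of 34 genes and the more negative for 1. Of the 11 dendritic cell markers edgeR called 0 as different, as did DESeq2 and limma-voom, with 0 at an unadjusted p under 0.05, and without the 10-week KO replicate 1 the wild-type change was the more negative for 3 of them. Over all genes the wild-type change was the more positive for 665 (5.97%) and the more negative for 843 (7.57%), 1508 in all (13.5%; interaction contrast, edgeR, adjusted p under 0.05). The KO libraries were not uniform: on the first principal component of the 14 libraries the 10-week KO replicate 1 stood at 7.14 and the other 2 at 36.9 and 49.9. Without it the number of differing genes rose to 2918, and without the 5-week wild-type replicate 2 it fell to 906.

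In the KO cells 1764 genes rose (15.8%) and 1748 fell (15.7%). The share of counts from mitochondrial genes was 0.173–0.262% in the 5-week and 0.421–0.898% in the 10-week KO libraries, against 0.105–0.197% in the wild-type libraries of both times, and its part in the differences between donors was not tested. The lists shared 346 risers, which are 39.4% of the wild-type risers and 19.6% of the KO risers, and 526 genes that fell, 43.5% of the wild-type list and 30.1% of the KO list. Another 49 genes rose in wild-type and fell in KO cells, and 96 did the reverse.

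The keratin Krt79, Siglecf and Fabp1 were not called in the KO cells, with log2 fold changes of 0.10, 0.03 and -0.32. Krt79 was at 3.62–8.78 CPM in the 5-week and 3.00–8.36 CPM in the 10-week KO libraries, and its change differed by 4.32 (SE 0.49, adjusted p = 0.00015, edgeR). Siglecf was at 11.8–14.5 and 5.00–17.6 CPM in the KO libraries, a difference of 3.08 (SE 0.43). At 5 weeks its KO levels overlapped the wild-type levels of 10.3–14.3 CPM, and at 10 weeks they were below all wild-type libraries. Fabp1 was at 5.38–8.12 and 1.09–7.98 CPM, a difference of 4.66 (SE 0.57), and Acaa1b at 1.65–5.11 and 1.82–8.68 CPM, a difference of 4.75 (SE 0.68).

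Plet1 and Fam89a went in opposite directions in the donors. Plet1 rose by 1.00 in wild-type cells and fell by 0.93 (SE 0.24) in KO cells, and Fam89a, a gene of little known function, rose by 3.34 and fell by 2.28. The difference for Fam89a, 5.62 (SE 0.48, adjusted p = 7.5e-06, edgeR), was the largest taken by the naming rule. Epcam had a difference of 5.45 (SE 0.60), with a fall of 2.82 in KO cells. Among lipid genes, the differences were 2.47 (SE 0.51) for Cidec, 1.67 (SE 0.30) for Eci2, 1.52 (SE 0.29) for Scarb1 and 1.33 (SE 0.34) for Mgll. The call for Mgll was lost without 5-week wild-type replicate 1 (adjusted p = 0.0502).

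For Pparg the difference was not called. Its KO levels were 16.6–20.9 and 10.1–40.2 CPM, a change of 0.60 (SE 0.36), and the difference was 1.06 (SE 0.50, adjusted p = 0.18, edgeR). The differences for Chil3 (1.28, SE 0.69) and Fabp4 (1.04, SE 0.46) were not called either.

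For a further group of genes the wild-type change was the more negative. Of the tissue macrophage and complement genes 15 of 28 had the more negative change in wild-type cells, and of the inflammatory genes 16 of 30, against 7.57% of all tested genes. Csf1, the growth factor of macrophages, was at 38.2, 34.4 and 29.2 CPM and then at 13.5, 17.5, 14.3 and 8.51 CPM in wild-type cells. In KO cells it was at 33.7–52.3 and then at 146–210 CPM, all above the earlier level, and the difference was -3.25 (SE 0.29, adjusted p = 7.5e-06, edgeR). C1qa rose by 1.20 (SE 0.42) in KO cells (difference -2.99, SE 0.59) and Apoe by 3.25 (SE 0.55; difference -3.97, SE 0.75). Il1a, not called in wild-type cells at -0.86, rose by 2.94 in KO cells (difference -3.80, SE 0.69). Itgam was at 60.6–94.9 and 60.8–81.3 CPM in KO cells (difference -2.43, SE 0.31), and Socs3 at 681–812 and 771–863 CPM (difference -2.13, SE 0.23).

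Dendritic cell markers fell in KO cells too, 8 of the 11 tested, with a sum of 3351–5315 CPM at 5 weeks and 474–2620 CPM at 10 weeks. The sums were above those of the wild-type libraries at both times, and the part of these markers in the other differences was not tested. For Ccl17 the KO fall was 3.31 (SE 0.28; difference -0.31, SE 0.34), and for Itgae 4.00 (SE 0.48; difference 0.49, SE 0.65). Runx3 fell less in KO cells, by 1.58 (difference -2.34, SE 0.29). Mitosis genes fell in KO cells, 21 of 28, and 8 of them differed from the wild-type change, or 19 without the 10-week KO replicate 1.

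**Figure D4:**
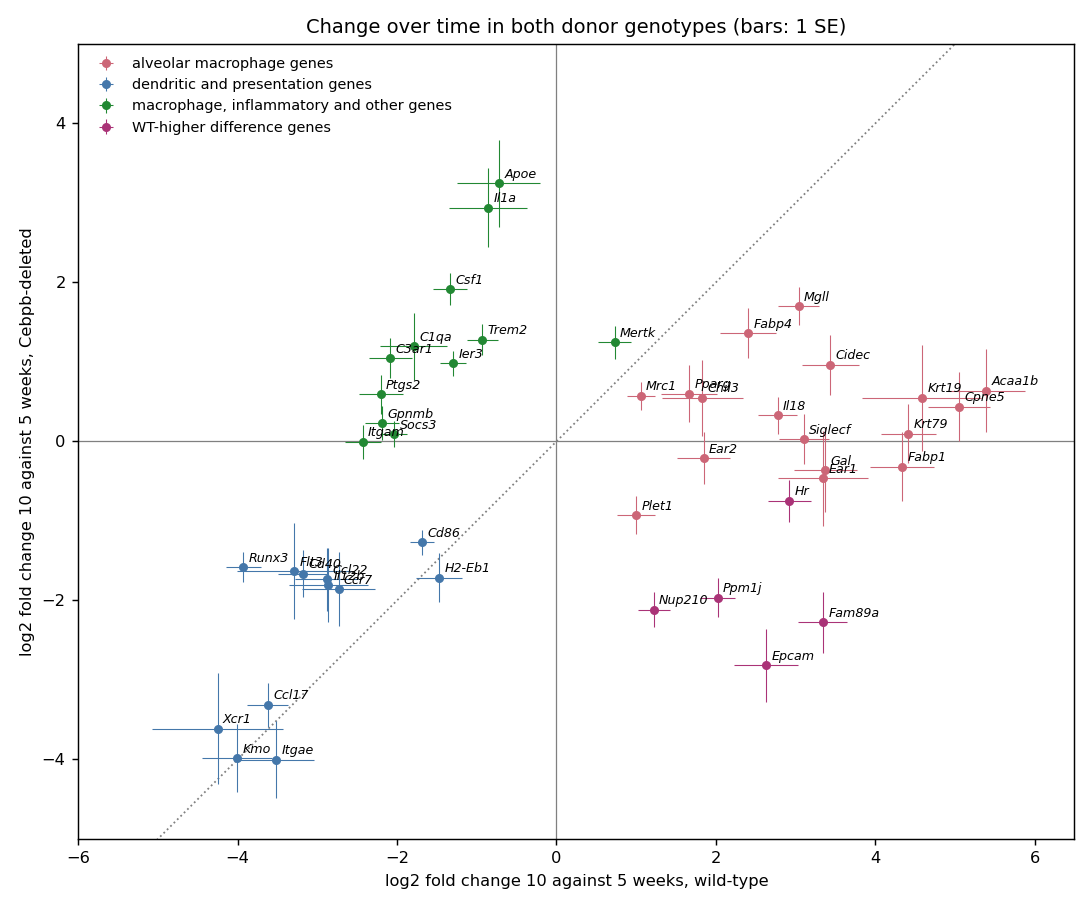
Log2 fold change of 10 against 5 weeks in wild-type donor cells (horizontal axis) and in Cebpb-deleted donor cells (vertical axis) for chosen genes (points; bars, 1 SE; dotted line, equal change). Alveolar macrophage genes such as Krt79 lie to the right near 0 on the vertical axis, and Ccl17, Itgae and Kmo lie near the dotted line.

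The direction of the wild-type change was last set beside 2 other wild-type groups of the series, which share no library with the chimeras. Adult macrophages from lavage (n = 4, 669178 to 1420667 counts) and premature alveolar macrophages of embryonic day 18 from whole lung (n = 3, 3086829 to 5407488 counts) came from Cebpb +/+ mice of the strain C/EBPb tm1Pfj on a mixed background. Age and the source of the cells cannot be told apart in that comparison. Of 8950 genes tested, 1851 were higher (20.7%) and 1916 lower (21.4%) in the adult cells, 3767 in all (42.1%, edgeR).

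Of 798 genes that rose in the wild-type chimera cells and were tested in both tables, 46.2% were higher and 9.90% lower in the adult cells. Of 747 genes that fell, 12.6% were higher and 46.2% lower, and over all 8878 shared genes the figures were 20.6% and 21.3%. For the genes that rose in KO cells the shares were 29.1% and 20.7%, and for those that fell 16.0% and 30.4%.

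Fabp1 was at 544 CPM (SD 74.0, n = 4) in adult and at 0.665 CPM (SD 0.307, n = 3) in embryonic cells, a log2 fold change of 9.50 (SE 0.35). Siglecf was at 361 CPM (SD 56.3) and 2.53 CPM (SD 0.840), and Krt79 at 799 CPM (SD 130) and 2.62 CPM (SD 2.31). All of these rose along both axes. Itgam stood at 2.49 CPM (SD 1.69) in adult and 51.3 CPM (SD 7.05) in embryonic cells, and Socs3 at 18.8 CPM (SD 8.89) and 365 CPM (SD 108), both lower at the later stage in each comparison.

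Some genes went against that order. Gal was far lower in adult than in embryonic cells, at 46.2 CPM (SD 2.78) and 641 CPM (SD 89.4), a log2 fold change of -3.79 (SE 0.21), although it rose from 5 to 10 weeks. Ccl17, which fell in the chimeras, was at 5.30–80.5 CPM in adult and 0–2.56 CPM in embryonic cells, a log2 fold change of 4.58 (SE 1.17, adjusted p = 0.013, edgeR). Pparg was not called between adult and embryonic cells, at 250.0 CPM (SD 90.7) and 184 CPM (SD 11.6), with a log2 fold change of 0.44 (SE 0.25).

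**Figure D5:**
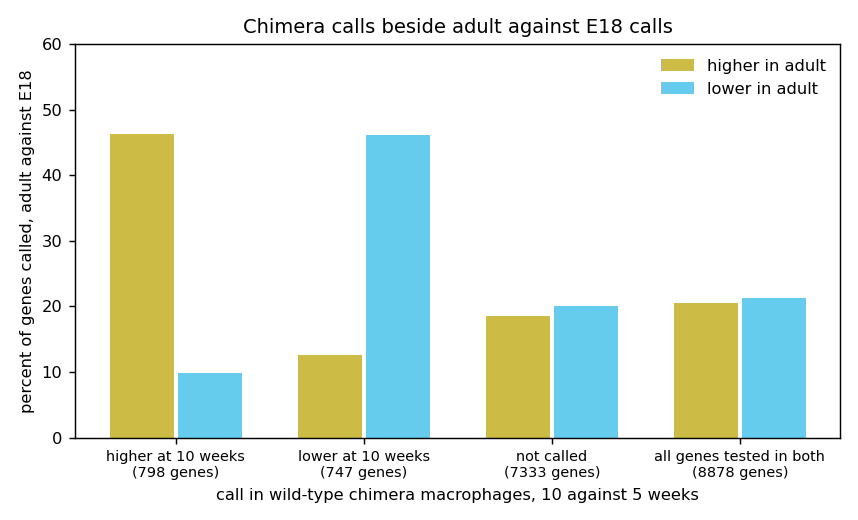
Share of genes called higher or lower in adult lavage macrophages (n = 4) than in embryonic day 18 premature alveolar macrophages (n = 3) (vertical axis, percent), for genes grouped by their call in the wild-type chimera cells, 10 against 5 weeks (horizontal axis). Of the 798 genes that rose in the chimeras 46.2% were higher in adult cells, and of the 747 that fell 46.2% were lower.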

How the data were processed

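RNA was measured in 7 wild-type and 7 Cebpb-deleted chimera libraries and in 7 adult and embryonic wild-type libraries. The authors deposited whole-number counts per Ensembl gene, and the submitters' processing notes name STAR 2.6.1a, featureCounts 1.6.3 and GRCm38. The sources used here do not say whether molecule barcodes were collapsed, nor how reads of near-identical genes or of either strand were counted. Each deposited ChIP peak carries a −log10 q of the authors' caller (the submitters' processing notes name MACS2 2.2.7.1). Groups were read from the sample titles.

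The 14 chimera libraries were fitted together in R 4.3.3 with edgeR 4.0.16 (TMM scaling, filterByExpr with a minimum count of 10, robust quasi-likelihood F tests, Benjamini-Hochberg), and the adult and embryonic libraries in a fit of their own. The threshold for a call was an adjusted p of 0.05. CPM of single genes are TMM-scaled. List sums, over all listed members, the floor and the Ddx3y values are counts over library totals without TMM scaling. Each SE is the log2 change over the square root of its F value. The test was checked on simulated counts. Alternatives were other scalings, count filters, DESeq2 1.42.0, limma-voom (limma 3.58.1), thinned counts, wild-type libraries alone, a replicate block and each library left out. Promoters and peaks were joined with Python 3.11.15, by symbol.

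Named genes were the 15 called genes that rose most and the 15 that fell most, given a mean of 20 CPM or more in either group and no shared CPM range, the 8 largest differences in each direction, up to 5 called members per list and a set of fixed genes. Of these the text names a part. Ear1, Ear2, Plet1, Zbtb46, Batf3, Fabp5 and Ace fall outside this rule and were chosen after their values were seen. The comparison, the members and the gene lists were chosen with earlier results of these data known. Results for some genes are not reported here.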

Additional observations from a re-analysis of the deposited data

Results flagged for a closer look

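Of 168 groups of 4 libraries checked for a library far from the other 3, 10 were found, and chance gives about 1 in 20. The number found is near that share. Ddx3y was entered without applying the threshold, and groups of 3 libraries were not checked. In the 10-week wild-type libraries these were the total count of replicate 1 (12652229), Ddx3y in replicate 1 (18.8 CPM), Gpnmb in replicate 1 (327 CPM, the others 229 to 241), Itgam in replicate 2 (33.4 CPM, the others 16.2 to 18.5) and Tap1 in replicate 3 (63.2 CPM, the others 94.6 to 97.3). In the 5-week KO libraries they were Cebpb (36.8 CPM), Gal (5.67 CPM) and Car4 (37.0 CPM) in replicate 3, Fam89a in replicate 4 (8.79 CPM) and Hr in replicate 1 (28.5 CPM).

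The change over time differed between wild-type and KO cells, by the interaction test of edgeR, for 38 of the 82 genes checked. The wild-type change was the more positive on the log2 scale by 5.62 for Fam89a, 5.45 for Epcam, 4.75 for Acaa1b, 4.66 for Fabp1, 4.62 for Cpne5, 4.32 for Krt79, 4.04 for Krt19, 3.99 for Ppm1j, 3.81 for Ear1, 3.74 for Gal, 3.67 for Hr, 3.37 for Gpd1, 3.34 for Nup210, 3.08 for Siglecf, 2.47 for Cidec and 2.45 for Il18. It was the more positive by 2.06 for Ear2, 1.93 for Plet1, 1.67 for Eci2, 1.52 for Scarb1, 1.33 for Mgll and 0.97 for Csf2rb. The Gpd1 difference was lost in 16 alternatives, with an adjusted p of up to 0.23, that of Cd40 in 7 (up to 0.069), that of Ccr2 in 4 (up to 0.090), that of Krt19 in 1 (0.054) and that of Mgll in 1 (0.0502; edgeR or an alternative tool).

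The wild-type change was the more negative for Apoe (-3.97), Il1a (-3.80), Csf1 (-3.25), C3ar1 (-3.13), C1qa (-2.99), Abca1 (-2.84), Ptgs2 (-2.80), Itgam (-2.43), Gpnmb (-2.42), Runx3 (-2.34), Ier3 (-2.28), Trem2 (-2.21), Socs3 (-2.13), Cd40 (-1.51), Ifitm3 (-1.45) and Ccr2 (-1.23).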

How the results depend on the processing

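No gene called in a comparison was called in the opposite direction under any alternative. Of the 180 called named genes, 130 kept their call over time under every alternative in which they were tested, and of 90 differences between donors 65 did. Leaving out 1 library gave 1393 to 1834 called genes over time (528 to 796 higher, 865 to 1042 lower), 906 to 2918 differences between donors (361 to 1441 more positive, 545 to 1477 more negative) and 3162 to 3851 genes between adult and embryonic cells (1484 to 1874 higher, 1608 to 1977 lower). The lowest numbers over time and between donors came without 5-week wild-type replicate 2, and the highest between donors without 10-week KO replicate 1. The fit of wild-type libraries alone gave 1323 higher genes. A minimum count of 50 left 2411 called between adult and embryonic cells (1212 higher, 1199 lower). Thinning to the smallest total left 405 more positive differences. Leaving out both libraries with Y-linked counts, an alternative chosen after seeing the data, gave 2699 differences (1336 more positive, 1363 more negative). Why these numbers moved was not tested.

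Replicate numbers did not meet the condition for pairing, a correlation over 0.1 in every pair: in their deviations from the group means, same-numbered wild-type libraries of the 2 times correlated at 0.166, 0.028 and 0.010, and same-numbered wild-type and KO libraries at 0.354, 0.016 and 0.057 (5 weeks) and 0.124, 0.098 and 0.11 (10 weeks). Wild-type and KO libraries of different numbers correlated at -0.294 to 0.208 (5 weeks) and at -0.118 to 0.031 (10 weeks). Whether same-numbered libraries share a recipient was not tested. With the replicate block 2020 genes were called over time, 1870 of the 2086 among them, and the differences between donors fell to 993 (416 more positive). With the block set to a number shared by the 2 donors, 1010 differed (409 more positive). Depth limits the detection of genes under about the floor of 3 counts, and the 10-week libraries other than replicate 1 were the shallowest of the wild-type ones.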
